A study of Mus musculus with 8 samples.

Results

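Activity genes are genes that neurons switch on within minutes of firing. Of these, 9 were followed here in the striatum of the R6/2 mouse, a model of Huntington's disease: the zinc finger transcription factors Egr1, Egr2, Egr3 and Egr4, the orphan nuclear receptors Nr4a1, Nr4a2 and Nr4a3, the neuronal transcription factor Npas4, and Arc, which codes for a protein of dendrites and synapses. Their probes were found by gene symbol, and 10 of the 55681 non-control probes on the array carried the symbol of a member, 2 of them for Nr4a2 and 1 for each of the others. The 9 genes are among 22936 named genes on the array. All 10 probes passed the filter on dim signal: each stood well above background on 4 or more of the 8 arrays.

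Striatal RNA of 4-week-old male mice was hybridised to 1-colour Agilent arrays, with 4 arrays for R6/2 mice and 4 for their wild-type (WT) controls, and with no treatment given in the labels for either genotype. R6/2 mice express the start of human huntingtin with a lengthened CAG repeat from a transgene under the human huntingtin promoter, and keep their own huntingtin alleles. The background strain is not given in the sources used here. The labels number the samples of each genotype 1 to 4 without saying whether each came from its own animal, so a p-value here reflects sample-to-sample spread that may be technical in part.

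When calcium enters an active neuron, kinases of the MAP kinase, calmodulin and cyclic AMP pathways modify proteins that already sit on DNA, chiefly CREB, the serum response factor with its ternary complex partners, and MEF2. These switch on a rapid set of genes, without new protein synthesis, that includes the Egr, Nr4a and Fos families, Arc and Npas4. Several rapid genes code for transcription factors that in turn act on a delayed set, which holds secreted and synaptic proteins such as Bdnf, the neuronal pentraxins and activin. In the striatum, cortical and dopamine input drives the rapid genes in the projection neurons, and their level in dissected tissue also follows what the animal did shortly before death.

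Promoter sequence was at hand for 6 of the 9 genes, in RefSeq windows on build GRCm38.p6 that were searched over the 250 bases before each start. No window was at hand for Egr1, Egr3 and Arc, so their promoters were not searched. The stretches are shown because the rapid genes share input from the same DNA-bound factors, and 1 or more members of each transcription factor family are given. Capitals mark, on either strand, the half-site of the cyclic AMP response element, TGACG, and, in Egr2, also the CArG box of the serum response element. Egr2 is given as the 30 bases at chr10:67537793-67537822 (plus strand), Egr4 at chr6:85513590-85513839 (minus strand), Nr4a1 at chr15:101266596-101266845 (plus strand) and Npas4 at chr19:4989972-4990221 (minus strand).
Egr2: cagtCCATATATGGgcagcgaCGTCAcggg
Egr4: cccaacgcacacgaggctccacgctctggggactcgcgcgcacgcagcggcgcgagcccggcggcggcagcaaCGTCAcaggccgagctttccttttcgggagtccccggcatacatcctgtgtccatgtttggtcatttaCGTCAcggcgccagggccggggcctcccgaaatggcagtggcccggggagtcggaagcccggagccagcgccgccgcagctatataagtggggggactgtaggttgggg
Nr4a1: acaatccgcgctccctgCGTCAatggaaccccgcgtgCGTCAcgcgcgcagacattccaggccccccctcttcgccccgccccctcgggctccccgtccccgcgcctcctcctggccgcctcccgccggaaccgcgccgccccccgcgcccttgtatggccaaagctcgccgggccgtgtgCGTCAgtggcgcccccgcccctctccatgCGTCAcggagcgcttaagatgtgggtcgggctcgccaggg
Npas4: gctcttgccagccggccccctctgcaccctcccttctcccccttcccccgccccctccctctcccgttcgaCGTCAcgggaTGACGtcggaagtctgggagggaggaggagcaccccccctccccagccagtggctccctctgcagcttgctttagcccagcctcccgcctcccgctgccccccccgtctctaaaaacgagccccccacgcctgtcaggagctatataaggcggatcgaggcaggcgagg

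The half-site TGACG was present in a window of all 6 genes, against 19.8% of the 27025 genes in the table. The full element TGACGTCA, which contains the half-site on both strands, was in 0 of the 6, against 1.77% of genes. Among the 6 genes searched, a CArG box was found in Egr2 alone, in 4 of its 5 windows, against 1.62% of genes with any. The binding sequence of Nr4a monomers, AAAGGTCA, and that of Egr proteins, GCGTGGGCG, were in 0 of the 6, against 1.55% and 0.622% of genes. A match describes letters in these windows and is no evidence of binding.

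Signals below are on a log2 scale, with each array's 75th percentile set to 0. Values of different probes cannot be ranked against each other, since probes differ in how well they bind. Differences are R6/2 minus WT from a limma fit over all 35121 tested probes, with a standard error (SE) and p-values adjusted by the Benjamini-Hochberg method over those probes. The threshold for a call was an adjusted p of 0.05. In tissue RNA, fewer cells of a type and less RNA per cell cannot be told apart.

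None of the 9 genes was called between the genotypes. Of the 10 probes, 0 were called by limma, against 529 probes (1.51%) over the array, or 283 with the replicate number as a block. Of probes, 1.14% were called lower in R6/2, and of genes, each by its brightest tested probe, 1.97% were called and 1.49% called lower. At an unadjusted p under 0.05 there were 2, Egr2 and Egr3, against 17.0% of tested probes. Differences lay below 0 for 7 of the 9 genes and above 0 for Nr4a1 and Nr4a3, while 45.6% of all 16916 tested genes lay below 0. The median difference was -0.39 for the members and 0.02 for all genes, and without WT 3 the member median was -0.20.

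**Figure D1:**
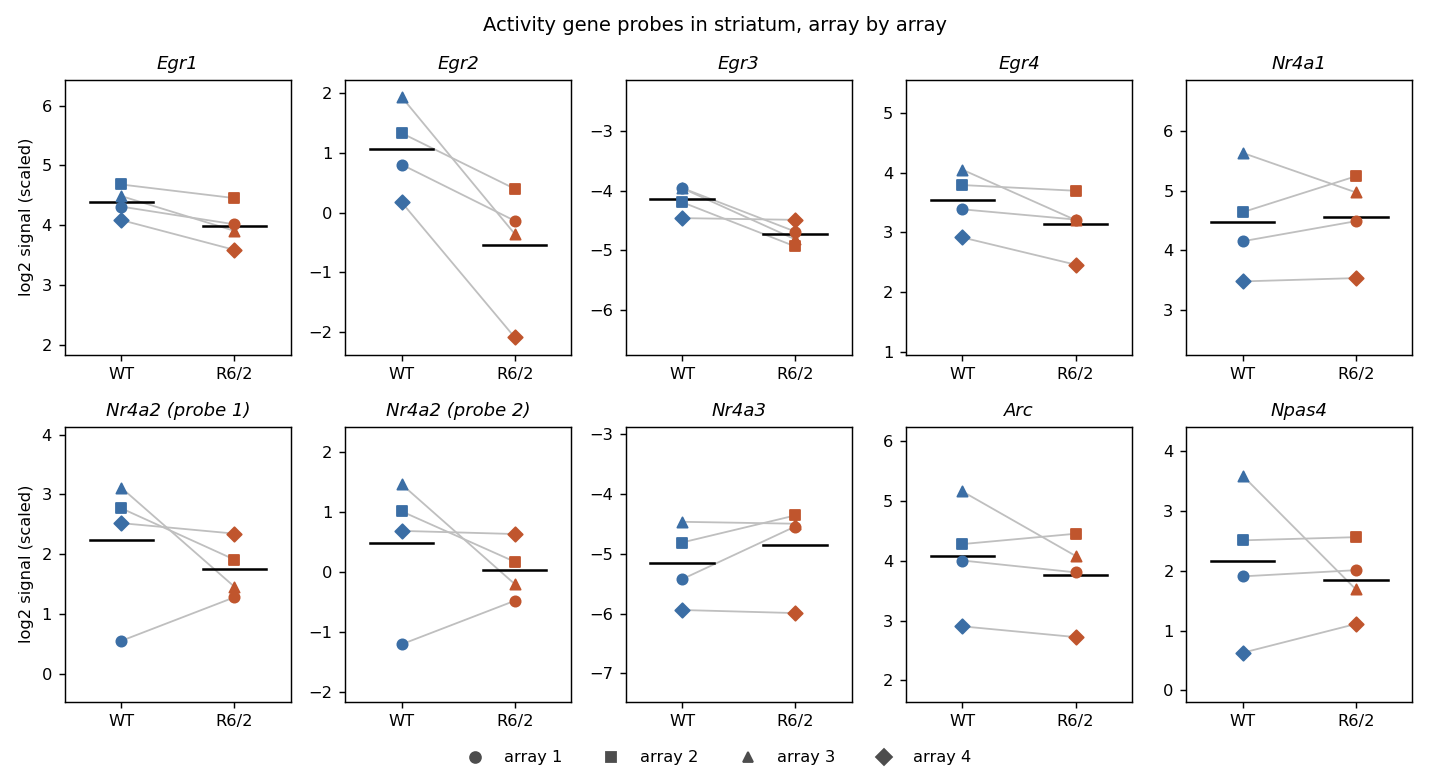
Signal of the 10 probes on each array, in log2 units relative to the array's 75th percentile, with WT in blue and R6/2 in red. Symbols give the array number, grey lines join same-numbered arrays and bars are means of 4 arrays; every panel spans the same number of log2 units. In Egr3 alone the 4 R6/2 points lie below the 4 WT points, by 0.03, while in most other panels WT 3 is the top WT point and array 4 the bottom point of its genotype.

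The Egr proteins bind GC-rich sites through zinc fingers that are much alike in all members, and the corepressors Nab1 and Nab2 hold back Egr1, Egr2 and Egr3. All 4 Egr differences were below 0. Egr1, which is widely used as a marker of recent neuronal activity, was read by a probe at chr18:35024395-35024454 (mm9). Its signals were 4.31, 4.68, 4.49 and 4.08 on WT arrays 1 to 4, and 4.01, 4.45, 3.90 and 3.59 on R6/2 arrays 1 to 4. Of the R6/2 arrays, 3 lay below every WT array, and R6/2 2 lay within the WT range. The log2 difference was -0.40 ± 0.20 (SE, n = 4 per genotype; adjusted p = 0.348), with a 95% interval from -0.85 to 0.05, and it was -0.27 without R6/2 4.

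Egr2, also known as Krox20 and needed for hindbrain segmentation and myelination by Schwann cells, had the largest difference of the 9 genes. Its probe at chr10:67004798-67004857 (mm9) read 0.80, 1.33, 1.93 and 0.17 on WT arrays 1 to 4, and -0.14, 0.40, -0.36 and -2.09 on R6/2 arrays 1 to 4. R6/2 4 stood far below the other R6/2 arrays, and R6/2 2 lay above WT 4, so the groups overlapped. On the log2 scale, R6/2 minus WT was -1.61 ± 0.57 (SE, n = 4 per genotype; adjusted p = 0.203), a WT signal 3.04 times that of R6/2. Its 95% interval ran from -2.91 to -0.30, and without R6/2 4 the difference was -1.09. In the authors' deposited table, the same probe is given a 3.02-fold change, with its direction column reading down in R6/2, with an adjusted p of 0.411.

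Egr3, which acts downstream of calcineurin and MAP kinase signals, was read by a probe at chr14:70479222-70479281 (mm9, plus strand). The 60 bases of this probe are given because it is the member probe whose genotypes did not overlap.
Egr3 probe: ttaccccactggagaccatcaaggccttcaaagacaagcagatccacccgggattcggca
The signals of this dim probe were -3.96, -4.19, -3.96 and -4.46 on WT arrays 1 to 4, and -4.68, -4.93, -4.82 and -4.49 on R6/2 arrays 1 to 4. In processed intensity units this is 22.1 to 30.5 in WT and 15.4 to 20.6 in R6/2, on arrays whose 75th percentile lay between 434 and 486. All 4 R6/2 arrays were below all 4 WT arrays, as held for 6.19% of tested probes, and the gap between WT 4 and R6/2 4 was 0.03. In log2 units R6/2 differed by -0.59, with an SE of 0.14 (n = 4 each; adjusted p = 0.0874) and a 95% interval from -0.92 to -0.26. With another background correction, normexp, run with 50 units added to every signal, it was -0.22. Adding 50 units shrinks the log2 difference of a probe this dim, whatever the correction itself does. The authors' deposited table gives the probe a 1.49-fold change, with down in its direction column and an adjusted p of 0.214.

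Egr4, which lacks the domain through which Nab proteins bind, was read at chr6:85461153-85461212 (mm9, minus strand). Its signals were 3.38, 3.79, 4.05 and 2.91 on WT arrays 1 to 4, and 3.21, 3.70, 3.21 and 2.46 on R6/2 arrays 1 to 4. The groups overlapped, with WT 4 below 3 of the R6/2 arrays. The log2 difference came to -0.39 ± 0.31 (SE, n = 4 per genotype; adjusted p = 0.573), with an interval from -1.11 to 0.32. It was -0.16 without R6/2 4, -0.22 without WT 3 and -0.60 without WT 4.

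Arrays with the same number also lay in the same row of the slide, and they deviated together from their genotype's mean. In the 4 Egr probes, R6/2 was below the same-numbered WT array in all 4 rows, which held for 15.9% of tested probes and for 0 of the other 6 member probes. For Egr2 the row differences were -0.94, -0.93, -2.29 and -2.26, and for Egr1 they were -0.30, -0.23, -0.58 and -0.50. With the replicate number as a block, the adjusted p was 0.0919 for Egr1, 0.0824 for Egr2, 0.133 for Egr3 and 0.205 for Egr4, so that 0 members were called in that fit too. Before adjustment, the 95% intervals in that fit were -0.62 to -0.19 for Egr1 and -0.76 to -0.02 for Egr4, below 0 unlike those without the block. WT arrays filled one column of the slide and R6/2 arrays the other, so genotype and slide column cannot be told apart.

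The Nr4a receptors have no known natural ligand that switches them on in the classical way, and act mainly through how much of them is made. Nr4a1 (Nur77), which dopamine drugs regulate in striatal projection neurons, was read at chr15:101105071-101105130 (mm9). Its signals were 4.15, 4.64, 5.63 and 3.48 on WT arrays 1 to 4, and 4.49, 5.24, 4.97 and 3.54 on R6/2 arrays 1 to 4. The R6/2 range lay inside the WT range. The log2 difference was 0.08 ± 0.51 (SE, n = 4 per genotype; adjusted p = 0.951). Its 95% interval ran from -1.08 to 1.25, and from -0.49 to 0.65 with the replicate block. The sign turned when WT 1, WT 4, R6/2 2 or R6/2 3 was left out, with values from -0.25 to 0.47 over all arrays left out in turn.

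Nr4a2 (Nurr1), which is needed for midbrain dopamine neurons and also marks the claustrum and the deepest cortical layer, was read by 2 probes. The brighter one lies at chr2:56960699-56960758 and the other at chr2:56959637-56959696 (mm9, minus strand). The sequence of the brighter probe is given because the results for the gene rest on it.
Nr4a2 probe: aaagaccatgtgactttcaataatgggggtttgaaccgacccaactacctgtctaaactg
The brighter probe read 0.55, 2.77, 3.11 and 2.52 on WT arrays 1 to 4, and 1.28, 1.91, 1.46 and 2.35 on R6/2 arrays 1 to 4. The other probe followed it on every array, with a gap between the probes of 1.65 to 1.83. WT 1 was the lowest of all 8 arrays and R6/2 4 the highest of the R6/2 arrays, unlike in most members. The log2 differences were -0.49 ± 0.54 and -0.46 ± 0.55 (SE, n = 4 per genotype; adjusted p = 0.692 and 0.718). Without WT 1 the brighter probe gave -1.05, and without WT 3 it gave -0.20.

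Markers of cortical glutamatergic neurons, of which 17 of 18 were tested, were set beside Nr4a2 because the cortex borders the striatum. Their mean centred level was 0.05, 0.26, 0.16 and 0.24 on WT arrays 1 to 4, and -0.26, -0.08, -0.51 and 0.14 on R6/2 arrays 1 to 4. WT 1 was the lowest WT array and R6/2 4 the highest R6/2 array here as well as for Nr4a2. At the other ends they differed. WT 2 was the highest WT array and R6/2 3 the lowest R6/2 array for these markers, against WT 3 and R6/2 1 for Nr4a2. Of these markers 1 was called, Nrgn, lower in R6/2, against 1.49% of genes called lower, and their median difference was -0.25. Their part in the Nr4a2 values was not tested.

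Nr4a3 (NOR-1) was read by a probe printed 10 times per array, whose listed span, chr4:48080690-48083876 (mm9), is longer than the probe. The probe was well above background on 5 arrays, namely WT 2, WT 3 and R6/2 1 to 3, and its processed intensity was between 7.26 and 22.9. The signals were -5.43, -4.81, -4.46 and -5.94 on WT arrays 1 to 4, and -4.54, -4.36, -4.50 and -5.99 on R6/2 arrays 1 to 4. Both arrays numbered 4 were low, and the other R6/2 arrays lay close together near the top of the WT range. On the log2 scale, R6/2 minus WT was 0.31 ± 0.44 (SE, n = 4 per genotype, adjusted p = 0.762). After normexp, whose added 50 units exceed the processed intensity of this probe, it was 0.06. In the main setting the difference was 0.05 without WT 4 and 0.69 without R6/2 4. It lay between these with each other array left out.

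Npas4, which is induced by calcium entry and regulates inhibitory synapses, was read at chr19:4984356-4984415 (mm9, minus strand). It had the widest WT range of the 10 probes, with 1.91, 2.51, 3.59 and 0.63 on WT arrays 1 to 4, and 2.01, 2.56, 1.69 and 1.11 on R6/2 arrays 1 to 4. The signal of WT 3 was 7.78 times that of WT 4, and all 4 R6/2 arrays lay between them. In log2 units R6/2 differed by -0.32, with an SE of 0.59 (n = 4 each; adjusted p = 0.827), and by 0.16 without WT 3.

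Arc is not a transcription factor but an effector: its protein promotes the removal of AMPA receptors from synapses and its mRNA travels into dendrites. The probe at chr15:74499592-74499651 (mm9, minus strand) read 4.00, 4.28, 5.16 and 2.90 on WT arrays 1 to 4, and 3.81, 4.45, 4.08 and 2.72 on R6/2 arrays 1 to 4. WT 3 was the highest array and the arrays numbered 4 were the lowest of each genotype. The log2 difference came to -0.32 ± 0.51 (SE, n = 4 per genotype; adjusted p = 0.796). It was 0.037 without WT 3 and 0.027 without R6/2 4.

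**Figure D2:**
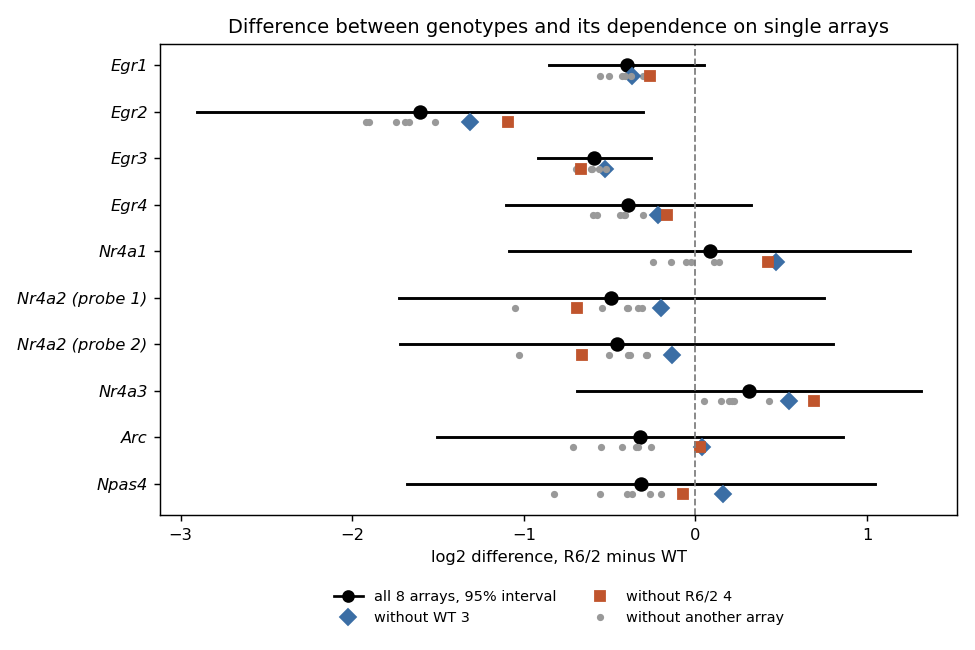
Log2 difference, R6/2 minus WT, of each member probe with all 8 arrays (black, with its 95% interval) and with each array left out in turn (points underneath; blue without WT 3, red without R6/2 4). The intervals of Egr2 and Egr3 lie below 0 before adjustment for the number of probes, and single arrays carry Nr4a1, Arc and Npas4 across 0.

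The spread between arrays of the same genotype was wide for most members. The residual SD was 0.216 for Egr3, 0.310 for Egr1 and 0.503 for Egr4, and between 0.713 and 0.973 for the other 7 probes. The median over all tested probes was 0.174 and the 95th percentile 0.612, so 7 of the 10 probes were among the 5% of tested probes with the widest spread. Npas4 stood at the 98.5th percentile and Egr3 at the 62.4th.

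**Figure D3:**
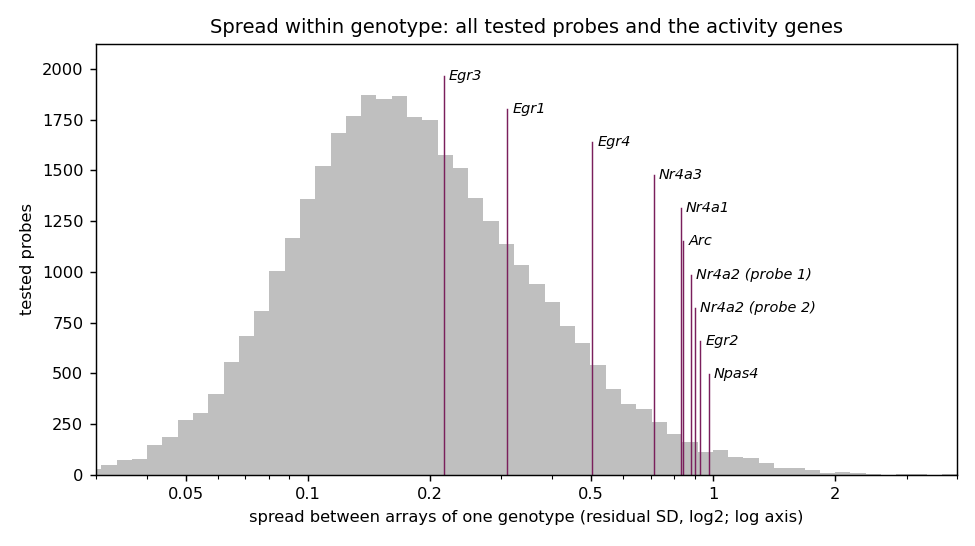
Histogram of the spread between arrays of the same genotype (residual SD of the log2 signal, log axis) over the 35121 tested probes, with the member probes as labelled lines whose heights carry no value. Egr3 and Egr1 lie in the body of the distribution, and 7 of the 10 lines lie to the right of the 95th percentile, 0.612.

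The members tended to move together from array to array within a genotype. WT 3 was the highest WT array for 7 of the 9 genes and WT 4 the lowest for 8, against 24.4% and 15.3% of all tested genes. R6/2 2 was the highest R6/2 array for 7 genes and R6/2 4 the lowest for 7, against 22.9% and 26.1% of all tested genes. Egr1, with WT 2 on top, Egr3 and Nr4a2 were the genes that departed from this order. The mean centred level of the 9 genes was -0.12, 0.47, 0.97 and -0.50 on WT arrays 1 to 4, and -0.15, 0.29, -0.13 and -0.84 on R6/2 arrays 1 to 4, so the range within WT was wider than the difference between the genotype means, -0.41.

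In the other rapid activity genes the same arrays were most often the highest and the lowest. Of 23 tested genes of 24 on this list, WT 3 was the highest WT array for 16 and WT 4 the lowest for 15, and R6/2 2 was the highest R6/2 array for 18 and R6/2 4 the lowest for 16. By the limma fit 0 of the 23 were called, and 5 had an unadjusted p under 0.05, against 17.0% of tested probes. The median difference of the list was -0.20, or -0.07 without WT 3. The smallest p-values belonged to Klf10, a zinc finger factor induced by TGF-beta (-0.55 ± 0.14, SE; adjusted p = 0.0907), and Jun, a subunit of AP-1 (-0.36 ± 0.09, SE; adjusted p = 0.0981). With the replicate block 1 gene of the list was called, Ier5, which was picked out after its values were seen (-0.71, adjusted p = 0.105 without the block and 0.0475 with it). Its dimmer tested probe gave -0.59 and was not called with the block (adjusted p = 0.0508). Of 18 settings, the brighter probe was called in 3 and the dimmer in 0.

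By the root-mean-square distance of centred log2 signals over the 8 arrays, the genes nearest to the mean pattern of the 9 members were Dusp1 (0.165), Ankrd33b (0.178), Clec4n (0.198), Il4ra (0.209) and Cryaa (0.219). Dusp1, a phosphatase of MAP kinases, is itself on the list of rapid genes. Its centred signals were 0.10, 0.20, 0.78 and -0.48 on WT arrays 1 to 4, and -0.16, 0.22, -0.02 and -0.64 on R6/2 arrays 1 to 4. Among the members themselves, Egr4 lay nearest to the mean of which it is part (0.116) and Nr4a2 farthest (0.789).

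In the delayed activity genes, the mean centred level of the list was between 0.17 and 0.27 on the WT arrays and between -0.35 and -0.14 on the R6/2 arrays. Single genes differed: 18 lay below 0 and 5 above, and Cdkn1a and Ptgs2 had SEs of 0.52 and 0.44. Within WT, WT 3 was the lowest array for 13 of the 23 genes, near the 44.6% of all tested genes for which it was lowest. All 23 were tested, 4 were called lower and 0 higher, against 1.49% of genes called lower, and the median difference was -0.38. The difference between the rapid and the delayed list was not tested.

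Inhba, the subunit of activin A, gave 1.07, 1.33, 0.93 and 1.28 on WT arrays 1 to 4, and 0.12, -0.12, -0.33 and -0.44 on R6/2 arrays 1 to 4. It fell, with no overlap between the genotypes (-1.35 ± 0.14, SE; adjusted p = 0.0102), and it was called with every array left out in turn. Nptx1, a neuronal pentraxin that gathers AMPA receptors, fell as well (-0.98 ± 0.13, SE; adjusted p = 0.0185). Its probe was dim, and the difference was -0.38 after normexp with its added 50 units (adjusted p = 0.0211). Without the filter on dim probes the adjusted p was 0.0530. The chromatin remodelling subunit Baz1a (-1.17 ± 0.22, SE; adjusted p = 0.0481) and the pentraxin Nptx2 (-1.02 ± 0.19, SE; adjusted p = 0.0499) lay just inside the threshold. With the replicate block their adjusted p rose to 0.1001 and 0.0612, and without WT 3 that of Nptx2 was 0.0711. Other tested probes of Baz1a gave -0.13 and -0.23, and another of Nptx2 gave -0.40, none of them called. After leaving out each array in turn, Nptx1 was called in 3 of 8 fits, Baz1a in 1 and Nptx2 in 0. With the replicate block the called genes of the list were Inhba, Nptx1 and Pim1, a kinase gene noted after these values were seen. Without the block Pim1 was not called (-0.68, adjusted p = 0.138).

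Homer1 is a postsynaptic scaffold with a short form that activity induces. Its brightest probe, which stood for the gene, gave -0.56 (adjusted p = 0.0626) and was not called. Looked at after these values were seen, 4 of its 5 tested probes were called, with log2 differences from -1.28 to -0.81 and adjusted p from 0.00901 to 0.0104, and all 4 were also called with the replicate block. Which transcript each of these probes reads was not determined.

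**Figure D4:**
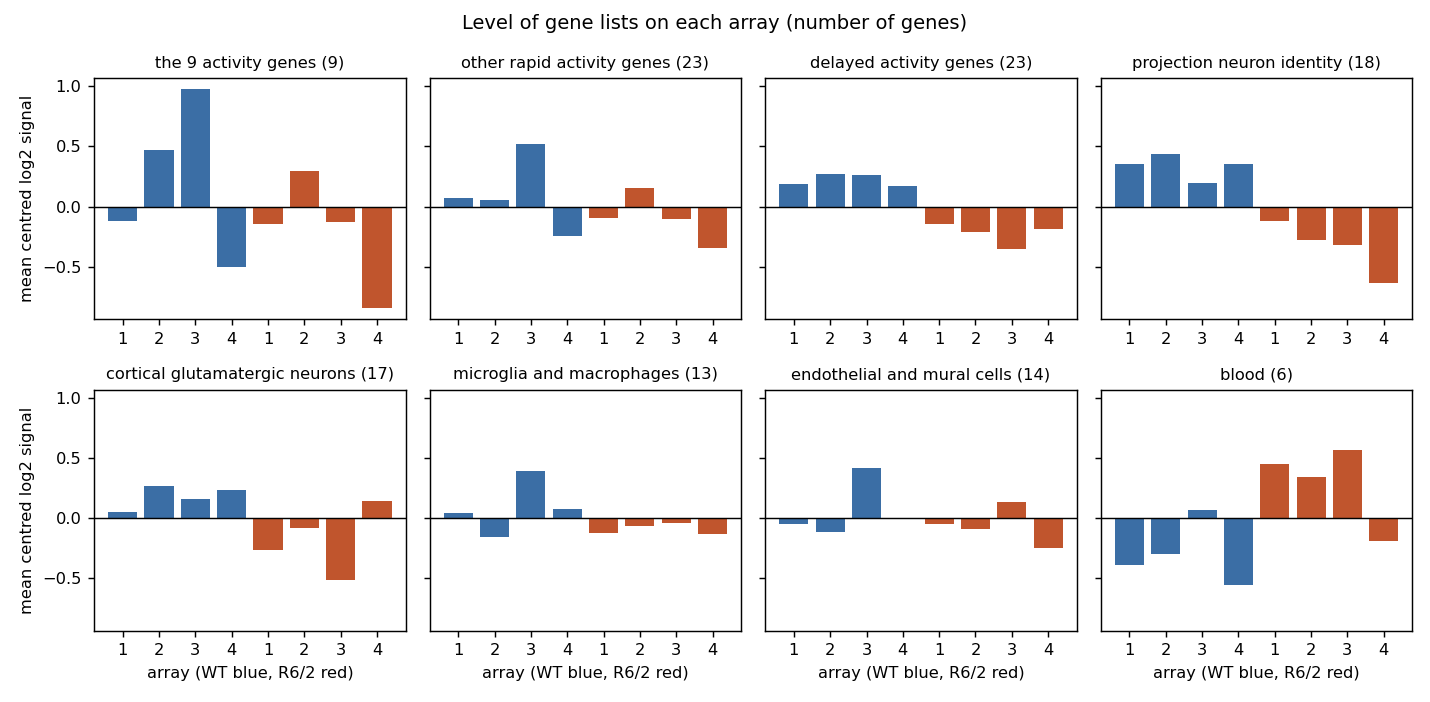
Mean centred log2 signal of gene lists on WT arrays 1 to 4 (blue) and R6/2 arrays 1 to 4 (red), with the number of tested genes in brackets. In the 9 activity genes and the other rapid genes WT 3 is high and array 4 low in both genotypes, whereas the delayed genes and the projection neuron genes are above 0 on all WT arrays and below 0 on all R6/2 arrays.

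Genes for the proteins that carry the signal to the rapid genes were read on the same arrays. Of 17 transcription factors and coactivators that act on rapid genes, among them Srf, Creb1, the Mef2 genes and Crebbp, limma called 0. At an unadjusted p under 0.05 there were also 0, against 17.0% of tested probes, and the median difference was -0.03. The smallest p-values were those of the acetyltransferase Ep300 (0.15 ± 0.07, SE; adjusted p = 0.301) and of Mef2d (-0.17 ± 0.09, SE; adjusted p = 0.382). Among 19 kinases and phosphatases, 10 had an unadjusted p under 0.05, against 17.0% of tested probes, and 1 was called, against 1.97% of genes. It was Camkk2, a calcium-calmodulin kinase that switches on other kinases (-0.56 ± 0.09, SE; adjusted p = 0.0288), and the median of the list was -0.22. Of the 19 genes, 14 lay below 0 and 5 above. The 10 with an unadjusted p under 0.05 included a higher one, Prkacb, noted after its values were seen (0.16 ± 0.06, SE; adjusted p = 0.239). The second tested probe of Camkk2 gave -0.64 (adjusted p = 0.0204), and with the replicate block the brighter probe missed the threshold (adjusted p = 0.0538), as it did in all but 1 of the 8 fits that left out an array, that without WT 3. Camk4, looked at after its values were seen, had 2 of 3 tested probes called, at -0.66 and -0.63, but not its brightest, and with the replicate block 0 of them were (adjusted p = 0.0573 and 0.0605). Of 7 corepressors and dimer partners of the members, 0 were called and the median was -0.12. At an unadjusted p under 0.05 there was 1 gene, against 17.0% of tested probes. That gene was Rxrg, a partner of Nr4a receptors that is also on the list of projection neuron markers below (-0.50 ± 0.15, SE; adjusted p = 0.160). Its second probe gave -0.43. Next came another of these partners, Rxrb (-0.12; adjusted p = 0.518).

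Markers of cells other than those listed so far were read on the same arrays. Markers of striatal projection neurons, all 18 of them tested, had a median difference of -0.71, with 9 called lower, against 1.49% of genes. Their mean centred level was between 0.20 and 0.44 on the WT arrays, lowest on WT 3, the highest WT array for most members. On the R6/2 arrays it was between -0.63 and -0.12, lowest on R6/2 4. That array was also the lowest R6/2 array for 7 of the 9 members. Markers of microglia (13 tested, 0 called) and of blood vessel cells (14 tested, 0 called) were highest on WT 3, at 0.39 and 0.42, against at most 0.08 and 0.14 elsewhere. WT 3 was also the highest array for most members, and R6/2 4 was the lowest R6/2 array for both lists, as for 7 of the 9 members. At the other ends these lists departed from most members. WT 2 was their lowest WT array, at -0.15 and -0.12, and R6/2 3 their highest R6/2 array, at -0.04 and 0.14. Of the markers of blood (6 tested, 0 called), 5 had an unadjusted p under 0.05, against 17.0% of tested probes. These blood markers all had differences above 0, with a median of 0.57. Their level was -0.38, -0.29, 0.06 and -0.56 on WT arrays 1 to 4, and 0.45, 0.35, 0.57 and -0.19 on R6/2 arrays 1 to 4. WT 3 was thus the highest WT array and the arrays numbered 4 the lowest of their genotype, as for most members. The highest R6/2 array was R6/2 3, not R6/2 2 as for most members. The direction between the genotypes also differed, since 7 of the 9 members lay below 0. A further 18 markers of all neurons, 0 of them called, had a median difference of -0.15. Unlike most members, they were lowest in WT on WT 3, at -0.10, and stood at 0.10 on WT 4. Among the R6/2 arrays they were lowest on R6/2 3, at -0.20. Markers of astrocytes (12 tested), the oligodendrocyte lineage (14) and ependyma and choroid plexus (11) had medians of -0.09, 0.07 and -0.14, with 0 called. Astrocyte markers were highest on WT 4 (0.11) and oligodendrocyte markers on WT 1 (0.15), and both were lowest on R6/2 4 (-0.13 and -0.27). Ependyma and choroid plexus markers ran from -0.85 on WT 2 to 0.76 on WT 1, unlike most members. The part of these cell markers in the members' values was not tested.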

How the data were processed

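The intensity values used are the processed signals of the deposited scanner files, which were made with Agilent Feature Extraction, per the file headers. The authors also deposited a table with log2 values, p-values and unsigned fold changes with the direction in a column of its own; its log2 values entered an alternative, and its p-values and folds are quoted only where named.

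For each array the log2 of the 75th percentile over non-control spots was subtracted from log2 of the processed signal. Spots flagged as outliers were dropped and spots of a probe averaged. Probes well above background on at least 4 of 8 arrays were fitted with lmFit and eBayes of limma 3.58.1 (R 4.3.3), without covariates. Where a gene had several tested probes, the brightest on average stood for it. The procedure was also run on simulated data whose noise was independent between arrays, unlike that of same-numbered arrays here. The outcome of that run is not used. Per array, 62.4% to 68.5% of probes stood well above background, 0 spots were saturated, and the number of arrays limits the precision.

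Of the non-control probes, 26762 took their name from an accession and 5056 from a gene identifier, matched to a gene table of GRCm38.p6, while 485 kept the file's symbol and 23378 stayed unnamed. The members, the lists and the tests were chosen with earlier results of these data known. Genes outside the members are up to 4 called genes per list by p-value (2 uncalled genes by the same order in lists with 0 calls), and the 5 genes nearest to the members' mean pattern; exceptions are said to have been seen first.

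Same-numbered arrays correlated in their deviations from the genotype means (0.222, 0.183, 0.356 and 0.133), and each correlated best with its own number, so the numbers were taken to pair the arrays. The main fit nonetheless has no replicate block, as its design set out, and the blocked fit is an alternative. The pairing comes from the data and the slide rows, not from the labels. Alternatives covered background correction, scaling, the filter, the design, the test, the authors' log2 values and each replicate left out. The background correction was normexp with an offset of 50 units added to every signal, which shrinks log2 differences of dim probes. All 8 arrays lay on 1 slide, so a slide block could not be fitted.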

Additional observations from a re-analysis of the deposited data

Results flagged for a closer look

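For Nr4a3, R6/2 4 lay far below the other R6/2 arrays: the gap to the nearest of them took up 0.887 of the whole range of the 4 R6/2 arrays. Its signal was -5.99, against -4.54, -4.36 and -4.50 on R6/2 arrays 1 to 3, and 0 of its 10 spots were well above background. WT 4 was also the lowest WT array, at -5.94. Chance alone flags about 1 in 20 groups by this measure, and 32 groups of 4 arrays (probes or lists in a genotype) were looked at.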

How the results depend on the processing

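No member probe or gene was called under any alternative, and the lowest adjusted p of a member was 0.0607 (Egr3, quantile normalization). Of 169 alternative values of the 10 member probes, 160 kept their direction and 9 reversed. Egr1, Egr2, Egr3, Egr4, Nr4a2 and Nr4a3 kept their sign in all settings that could be run. With array weights Arc was 0.20, Npas4 0.32 and Egr4 -0.08. Arc was also 0.037 without WT 3 and 0.027 without R6/2 4. Leaving out each array in turn gave -0.72 to 0.037 for Arc, -0.83 to 0.16 for Npas4 and -0.25 to 0.47 for Nr4a1. Nr4a3 has no value where a probe had to be well above background on all 8 arrays.

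The number of probes called over the array was 529, and it was 981 with normexp, 228 with median scaling, 110 without the filter, 1125 with array weights and 264 by an unpaired test per probe. With the replicate block it was 283, and 100 to 505 with each array left out. The share of called probes that were lower in R6/2 was 75.6%, but 63.5% after quantile normalization and 55.7% after median scaling, which moved the median difference of all probes from 0.01 to 0.09. Delayed genes called went from 4 to 2 with median scaling, 2 by that unpaired test, 1 without the filter, 3 with the replicate block and 1 to 4 with each array left out, and to 6 with normexp, 6 with array weights and 5 with probes well above background on all arrays. Kinases and phosphatases went from 1 to 2 with normexp, 3 with array weights, 0 with median scaling, without the filter and with the replicate block, and 0 to 1 with each array left out. Other rapid genes went from 0 to 1 with the replicate block and with array weights, and 0 to 1 with each array left out. The replicate block changed no call of a member. The cause of these changes was not tested. Nr4a3 and Egr3 were the dimmest member probes, and their signals close to background limit what can be said of them.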
